A study of Mus musculus with 2 samples.

Results

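Of the 22132 R-loop peaks deposited for mouse neural stem/progenitor cells (NSPCs), 442 peaks (2.00%, 95% Wilson interval 1.82% to 2.19%) overlapped at least 1 bp of a noncoding gene and no protein-coding gene. They are called noncoding-only peaks here. The genes were those of the GENCODE M1 annotation of the mm9 genome, in which 14906 of 37273 genes have a type other than protein-coding. A further 1036 peaks overlapped a noncoding gene together with a protein-coding gene and were counted with the 16451 peaks (74.3%) over protein-coding genes. The remaining 5239 peaks (23.7%) touched no annotated gene. Noncoding-only peaks were thus 29.9% of the 1478 peaks that overlapped any noncoding gene.

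The cells were primary NSPCs cultured from the frontal brain of C57BL/6 mice at postnatal day 7, and the study's methods state that they were kept in 0.5 μM aphidicolin, an inhibitor of DNA polymerases that slows replication, for 48 h. R-loops were recovered by DRIP, in which digested genomic DNA is precipitated with S9.6, an antibody against RNA:DNA hybrids, and the recovered DNA is sequenced. The study describes 3 biological replicates with 3 pooled DRIP reactions each, and its single list of peak positions was analysed here, with no untreated NSPCs beside it. The list holds no signal, score or read count, so the depth is unknown, no value below has a replicate error, no difference was tested, and the identity of the cells cannot be checked from it.

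An R-loop forms when a nascent RNA pairs with its template DNA strand and displaces the other strand, and a displaced strand rich in G is known to favor it. Long noncoding RNAs are transcribed by RNA polymerase II like mRNAs but are not translated. Some act in the nucleus, others are antisense to a coding gene or start beside its promoter, and others are hosts, which carry microRNAs (miRNAs) or small nucleolar RNAs (snoRNAs) within their transcripts. In neural progenitors, well known examples are Sox2ot, in whose intron the stem cell factor gene Sox2 lies, and the precursors of miR-9, a brain miRNA that restrains progenitor genes.

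The noncoding-only peaks held 13 of the 1005 miRNA hairpins in the RefSeq table, when hairpin sequences were located in mm9 by exact match. Mir124a-3 and Mir150, placed by the annotation alone, are described further on. The miRNAs are shown because all 3 copies of miR-9 were among them. Mature sequences are those of RefSeq for GRCm38.p6, 5′ to 3′, with the seed, bases 2 to 8, in capitals.
miR-9-5p: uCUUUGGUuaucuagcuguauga
miR-9-3p: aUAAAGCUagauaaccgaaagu
miR-9b-5p: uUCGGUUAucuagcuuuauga
miR-9b-3p: aUACAGCUagauaaccaaaga
let-7i-5p: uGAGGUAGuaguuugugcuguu
miR-29a-3p: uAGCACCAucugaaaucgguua
miR-34a-5p: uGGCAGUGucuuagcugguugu
miR-760-3p: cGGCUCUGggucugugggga
miR-3083-5p: aGGCUGGGaauauuucagagau
miR-3089-5p: uGAGUUCAgggacagcgugucu
miR-3093-5p: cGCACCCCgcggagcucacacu
The Mir9-1, Mir9-2 and Mir9-3 hairpins give the same mature miR-9-5p and thus share 1 seed. The other seeds printed differ from it and from each other. The miR-9b hairpins lie on the opposite strand of Mir9-1 and Mir9-2, inside the same peaks.

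To show the DNA of the long noncoding genes, the 60 bases in which G most exceeded C, read along the coding strand, were taken from the peaks of 8 genes described below. Sequences are from mm9, 5′ to 3′ on the coding strand, and runs of at least 3 G are in capitals. The excess is what chose each stretch, so it is a description and not a result.
Pvt1, chr15:61897328-61897387, plus strand, intron: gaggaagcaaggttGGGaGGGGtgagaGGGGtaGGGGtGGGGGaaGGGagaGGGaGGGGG
AI854517, chr7:86650634-86650693, plus strand, intron: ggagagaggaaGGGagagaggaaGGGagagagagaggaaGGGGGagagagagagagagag
C130071C03Rik, chr13:83868975-83869034, plus strand, intron: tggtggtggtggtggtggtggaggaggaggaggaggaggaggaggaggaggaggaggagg
Gm3764, chr3:88022961-88023020, plus strand, intron: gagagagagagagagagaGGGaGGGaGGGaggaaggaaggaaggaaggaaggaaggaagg
Sox2ot, chr3:34468203-34468262, plus strand, intron: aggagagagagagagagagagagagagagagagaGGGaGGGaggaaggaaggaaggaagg
Malat1, chr19:5799986-5800045, minus strand, exon: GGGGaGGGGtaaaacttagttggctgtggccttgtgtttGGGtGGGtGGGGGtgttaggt
9430008C03Rik, chr2:158183159-158183218, minus strand, exon: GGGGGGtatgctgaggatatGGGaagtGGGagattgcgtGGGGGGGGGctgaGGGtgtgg
Dleu2, chr14:62300344-62300403, minus strand, intron: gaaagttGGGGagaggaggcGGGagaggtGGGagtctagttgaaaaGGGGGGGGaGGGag
The Pvt1 stretch held 40 G and 1 C, and that of C130071C03Rik 40 G and no C. Those of AI854517, Gm3764 and Sox2ot consist of G and A alone, in short repeats. In Malat1 the stretch held 30 G and 4 C, the least one-sided of the 8. The same search over 60 long noncoding genes gave stretches with 23 to 42 G, 16 without any C and 9 made of G and A alone. Of these 60, 52 lay in an intron and 8 in an exon. Not all 60 are distinct, since overlapping gene records can share a stretch. This was so for the records named Zfp783, for Gm17627 and AI480526, and for 2610005L07Rik and AC152164.1.

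By class of gene, lincRNA genes held most of the noncoding-only peaks. LincRNAs are long noncoding RNAs from between coding genes. They accounted for 287 peaks (64.9%), followed by antisense genes with 55 (12.4%), pseudogenes with 52 (11.8%), processed transcripts with 36 (8.14%), small RNA genes with 35 (7.92%) and other long noncoding genes with 4. Pseudogenes are decayed copies of genes, and a processed transcript is a spliced RNA without a coding frame that GENCODE placed in no narrower class. No noncoding-only peak lay over an immune receptor segment. A peak was counted once for each class it touched, and 26 peaks touched more than 1 class.

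The classes differ in the number and length of their genes, so counts were set beside the share of genes with any peak. A peak of any kind overlapped 24.9% of the 2141 lincRNA genes, 19.8% of the 1354 antisense genes, 26.0% of the 254 processed transcript genes and 10.4% of the 96 other long noncoding genes. The share was 2.21% for the 5209 pseudogenes, 4.95% for the 5371 small RNA genes and 0% for the 481 immune receptor segments. For all noncoding genes together it was 8.44%, compared to 39.6% of the 22367 protein-coding genes. The long noncoding classes were thus overlapped more often than pseudogenes or small RNA genes, and less often than protein-coding genes, whose median length was 15.4 kb against 7.70 kb for lincRNA genes, 0.650 kb for pseudogenes and 0.107 kb for small RNA genes. The lincRNA class includes genes typed as processed transcripts that have a lincRNA transcript. By gene type alone, a peak of any kind overlapped 474 of 1273 lincRNA genes and 403 of 2572 processed transcript genes. The order of these classes thus depends on how they are drawn.

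A noncoding-only peak was found in 375 noncoding genes (2.52%), and another 883 had only peaks that also lay over a protein-coding gene. It was found in 208 lincRNA genes (9.72%), 45 antisense genes (3.32%) and 22 processed transcript genes (8.66%). By gene type alone, it was found in 163 of 1273 lincRNA genes and 115 of 2572 processed transcript genes. Of the 268 antisense genes with any peak, 45 thus had a noncoding-only one, against 208 of 533 lincRNA genes, and by the rule a peak that also lay over the coding gene on the other strand was not counted. Of the 375 genes, 307 had 1 noncoding-only peak, 68 had more, and 13 had at least 4. LincRNA genes with such a peak had a median length of 25.4 kb.

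**Figure D1:**
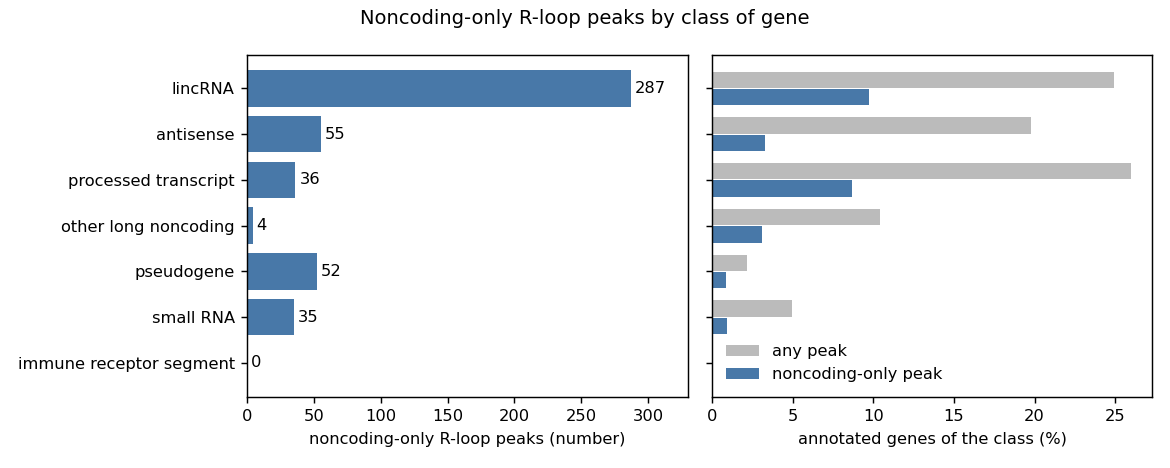
Left, number of noncoding-only R-loop peaks by class of gene. Right, share of the annotated genes of each class that overlapped any peak (grey) or a noncoding-only peak (blue). LincRNA genes hold 287 of the 442 peaks, and processed transcript, lincRNA and antisense genes show the 3 highest shares with any peak, between 19.8% and 26.0%.

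Per base, peaks covered 1.68% of the 61.3 Mb that lie in noncoding genes and in no coding gene. The same measure was 3.74% for the span of protein-coding genes, 0.723% for DNA without a gene and 1.92% for the genome. Within the noncoding span, coverage was 1.88% in lincRNA genes, 1.87% in processed transcripts, 1.79% in antisense genes, 2.17% in small RNA genes and 0.687% in pseudogenes. It was 10.9% in other long noncoding genes, which span only 0.0498 Mb. The 3 large long noncoding classes were thus close to each other and to the genome as a whole, and pseudogenes were close to DNA without a gene. The lincRNA value includes the many peaks of Pvt1, described below, and coverage without that gene was not computed. Peaks that reach into a gene from outside count in these values.

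Noncoding-only peaks had a median size of 1.05 kb, with quartiles of 0.532 and 2.32 kb and a range from 0.107 to 28.6 kb. The median was 1.68 kb over protein-coding genes and 0.701 kb over no gene. Peaks under 1 kb were 47.5% of the noncoding-only peaks, compared to 33.1% over coding genes and 66.6% over no gene. At the other end, 9 noncoding-only peaks of at least 10 kb held 16.1% of all 870.6 kb covered. Their median G and C content was 47.6%, also between the 49.5% of coding gene peaks and the 46.6% of peaks without a gene. In all 3 measures the noncoding-only peaks therefore lay between the other groups.

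CpG islands are stretches of DNA with many CG dinucleotides that mark many promoters. By the criteria of at least 200 bp, 50% G and C and an observed over expected CG ratio of 0.6, applied to whole peaks, 34 noncoding-only peaks (7.69%) were island-like, against 10.8% of coding gene peaks and 1.70% of peaks without a gene. None of the 55 antisense peaks was island-like, and 23 of the 287 lincRNA peaks (8.01%) and 7 of the 35 small RNA peaks were.

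**Figure D2:**
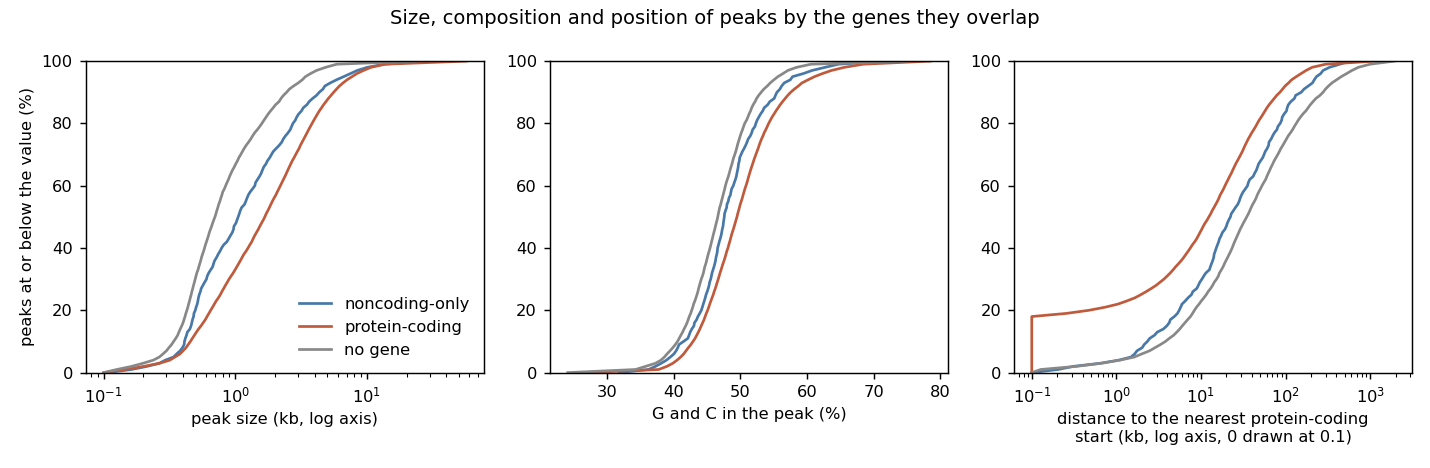
Cumulative share of peaks by size (left, kb, log axis), G and C content (middle, %) and distance to the nearest protein-coding start (right, kb, log axis with 0 drawn at 0.1), for noncoding-only peaks (blue), peaks over protein-coding genes (red) and peaks over no gene (grey). The blue curve runs between the others for most of its length, with medians of 1.05 kb, 47.6% and 22.3 kb.

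G over C excess on the coding strand, called skew, could be computed for 424 noncoding-only peaks whose genes all lie on 1 strand. It was above 0 in 239 (56.4%, Wilson interval 51.6% to 61.0%) and in 66.2% of 15336 coding gene peaks. Values differed by class, with 57.2% of lincRNA peaks, 62.0% of pseudogene peaks, 68.8% of small RNA peaks and 40.7% of the 54 antisense peaks above 0. Antisense peaks were thus the only named class with more than 4 peaks in which most peaks had more C than G on the strand of the gene. Their median skew was -0.026, compared to 0.022 for lincRNA peaks. No interval was computed for this class of 54 peaks, and the difference was not tested. The deposited positions carry no strand, so the strand of the RNA in these hybrids is unknown.

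Of the noncoding-only peaks, 92 (20.8%, Wilson interval 17.3% to 24.8%) covered the start of a noncoding gene, compared to 17.5% of coding gene peaks that covered a coding start. This share depended on the class, since most small RNA genes are shorter than the peaks over them. It was 100% for the 35 small RNA peaks, 51.9% for pseudogenes, 12.9% for lincRNA genes, 16.7% for processed transcripts and 7.27% for antisense genes, where 4 of 55 peaks covered the start. Over long noncoding genes alone it was 12.9% of 373 peaks. An exon was touched by 39.4% of the noncoding-only peaks and by 57.1% of coding gene peaks, and 60.6% lay in introns only. Within long noncoding genes, 364 peak midpoints fell along the whole gene, with 6.59% to 12.4% in each of 10 equal parts of its length.

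Peaks over a noncoding start were larger and richer in G and C than the others. Their median size was 2.39 kb against 0.890 kb, their median G and C content 51.3% against 47.2%, and 26.1% were island-like against 2.86%. A larger peak also has more room to reach a start. Of the 92 peaks over a noncoding start, 35 touched a small RNA gene, 27 a pseudogene and 48 a long noncoding gene, some counting in several classes. A start here is the 5′ end of a gene record, which for a small RNA need not be a promoter. Over protein-coding starts the values were 2.70 kb, 55.4% and 47.5%. The starts of Mir124a-3, a gene of the neuronal miRNA miR-124, and of Dleu2, a long noncoding RNA named for a region deleted in leukemia, lay in island-like peaks. The 200 bases centered on each start, on the coding strand of mm9, are shown with every CG in capitals.
Mir124a-3, chr2:180628636-180628835, plus strand: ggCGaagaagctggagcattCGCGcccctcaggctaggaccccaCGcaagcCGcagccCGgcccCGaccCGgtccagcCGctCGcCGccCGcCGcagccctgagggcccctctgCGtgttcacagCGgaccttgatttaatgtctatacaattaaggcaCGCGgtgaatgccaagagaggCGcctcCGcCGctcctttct
Dleu2, chr14:62301062-62301261, minus strand: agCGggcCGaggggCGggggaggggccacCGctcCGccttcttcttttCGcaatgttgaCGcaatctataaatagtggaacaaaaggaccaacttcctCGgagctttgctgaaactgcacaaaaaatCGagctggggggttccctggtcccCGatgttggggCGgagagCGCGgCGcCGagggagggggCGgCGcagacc
The windows hold 20 and 17 CG dinucleotides and are 66.0% and 62.0% G and C, respectively. These windows were fixed at the start, whereas the purine repeats printed for AI854517, Gm3764 and Sox2ot were chosen for excess of G over C. The lack of C in those repeats therefore cannot be set against the CG content here.

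The gene with the most noncoding-only peaks was Pvt1, a long noncoding RNA beside the proto-oncogene Myc, at chr15:61869542-62209651 on the plus strand. It held 16 peaks that covered 109.5 kb, or 32.2% of its 340.1 kb. Their sizes ran from 0.468 to 20.4 kb, and the widest were 14.3, 15.5 and 20.4 kb. The first peak began 3.17 kb after the annotated start, which no peak covered. The last ended 236.4 kb after the start, so that the final part of the gene was free of peaks. Most of the 16 lay wholly in introns, their G and C content ran from 44.9% to 48.1%, and none was island-like. One of them, 8.57 kb wide, also covered the pseudogene H2afy3. The Myc start lay 52.6 kb from the Pvt1 start, and every one of the 16 peaks had Myc as its nearest coding start, at 55.8 to 287.1 kb. Without Pvt1, 426 peaks remained with a median of 1.03 kb.

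The genes around the 3 copies of miR-9 were covered over most of their length. AI854517, listed in RefSeq as Mir9-3hg, the host of Mir9-3, held 4 peaks of 3.50, 13.96, 4.80 and 11.3 kb that covered 72.0% of its 34.3 kb (chr7:86645003-86679283). The first of these covered the start of the gene, and the peak of 13.96 kb held Mir9-3. C130071C03Rik (chr13, plus strand) held 3 peaks of 12.7, 0.496 and 8.43 kb over 75.6% of its length, the first over the gene start and the 8.43 kb peak over Mir9-2. Gm3764 (chr3, plus strand), 7.38 kb long, was covered from end to end by the widest noncoding-only peak of the list, 28.6 kb at chr3:88009189-88037822, which also held Mir9-1 and Mir3093. All 3 miR-9 genes thus lay in peaks of at least 8.43 kb, on 3 chromosomes. These peaks were 41.8% to 53.0% G and C, and none of the peaks with a miR-9 gene was island-like.

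**Figure D3:**
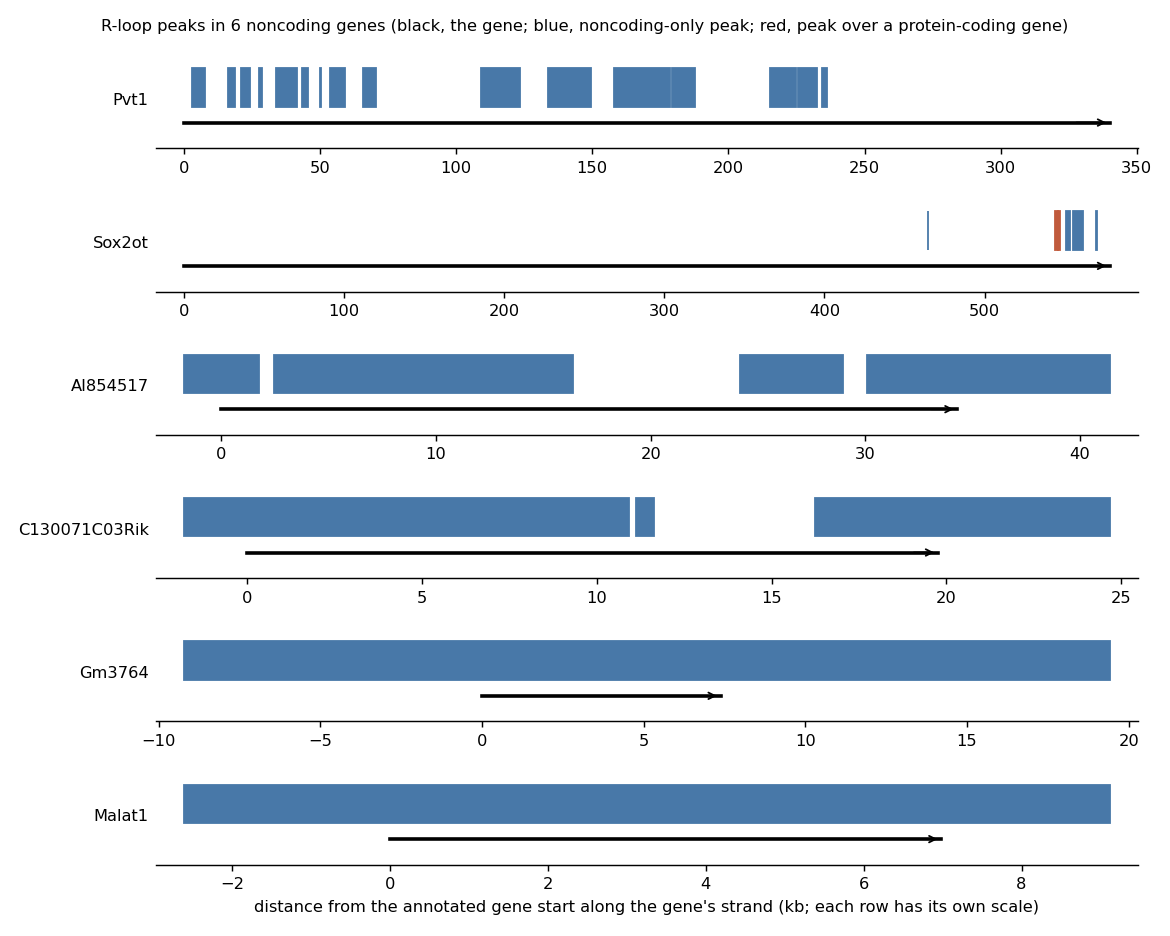
R-loop peaks along 6 noncoding genes, by distance from the annotated gene start in kb, each row on its own scale. Black arrows are the genes in their direction of transcription, blue boxes noncoding-only peaks and red boxes peaks over a protein-coding gene. Pvt1 holds 16 separate peaks in the first 236.4 kb, Sox2ot peaks gather near Sox2 (red), and Gm3764 and Malat1 are each covered by 1 peak.

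Sox2ot, at chr3:34003360-34581541, is 578.2 kb long. Its 4 noncoding-only peaks of 0.282, 2.73, 5.95 and 0.817 kb covered 1.69% of it. The smallest lay 464.6 kb after the Sox2ot start, and the others between 550.9 and 570.4 kb. The remaining peaks of Sox2ot, of 2.24 and 1.22 kb, overlapped Sox2 and lay between 543.6 and 547.1 kb. All but the smallest noncoding-only peak thus lay downstream of the Sox2 peaks, and the first 464.6 kb of the gene had none.

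Among the fixed list of long noncoding RNAs known from neural cells, 7 of 26 that the annotation holds as noncoding had a noncoding-only peak, 2 had only a peak shared with a coding gene and 17 had none. The 7 were Sox2ot, AI854517, D230004N17Rik, Dleu2, Emx2os, Nkx2-2as and Rian. The share with any peak, 9 of 26, stood beside 24.9% of the lincRNA class, or 474 of the 1273 genes of that gene type, and was not tested. D230004N17Rik, the host of the miR-100 cluster (Mir100hg), held 4 peaks of 1.20 to 1.92 kb, and its remaining 2 peaks overlapped 2610203C20Rik, annotated as protein-coding. Dleu2 held 2 peaks of 4.14 and 2.92 kb, both island-like. Emx2os, antisense to the cortical patterning gene Emx2, held peaks of 0.963 and 1.86 kb away from its start. Nkx2-2as held 1 peak of 0.461 kb, 105.0 kb after its start, beside a peak of 3.10 kb at its start that overlapped Nkx2-2. Rian, an imprinted RNA that hosts snoRNAs, held 1 peak of 0.339 kb. No peak overlapped Miat, Rmst, Dlx1as, Dlx6os1 or Meg3.

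Of the widely expressed long noncoding and host RNAs, 8 of 26 had a noncoding-only peak, 4 only a shared peak (Gas5, Tug1, Snhg9 and Epb41l4aos) and 14 none. These are counts of gene records, and Snhg18 is counted under both a lincRNA and a small RNA record, each without a peak. Any peak was thus present for 12 of 26, beside 24.9% of the lincRNA class, of which 9.72% had a noncoding-only peak, without a test. Of the 1273 genes with the lincRNA gene type, 474 had any peak and 163 a noncoding-only peak. Malat1, an abundant RNA of nuclear speckles, was covered whole by 1 peak of 11.7 kb that ran from 2.61 kb before to 9.12 kb after the start of this 6.98 kb gene. Neat1, the scaffold of paraspeckles, held a peak of 3.03 kb over its start and a peak of 0.980 kb within the gene, which together covered 15.2% of its 20.8 kb. Airn, an imprinted antisense RNA of Igf2r, held the smallest noncoding-only peak, 0.107 kb, beside a peak of 3.92 kb that overlapped Igf2r. Nespas, antisense to Gnas, held a noncoding-only peak of 0.655 kb at its far end and 2 peaks shared with Gnas. No peak overlapped Xist, Tsix, Ftx, Jpx, Firre or H19.

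SnoRNA hosts are genes whose introns carry snoRNAs, the guides for chemical modification of other RNAs. Snhg1 was overlapped by 1 peak of 3.20 kb that held 6 snoRNA genes (SNORD27, SNORD28, SNORD29, SNORD30, SNORD31 and Snord22). Snhg12 was overlapped by a peak of 1.26 kb with Snora16a, Snora44 and Snora61. The gene 9430008C03Rik, listed in RefSeq as Snhg17, was covered over 96.2% of its 6.27 kb by a peak of 6.27 kb that held 3 copies of SNORA71. A peak of 3.89 kb covered 1110038B12Rik whole, with 3 snoRNA genes. A peak of 2.04 kb covered 85.0% of 2410006H16Rik and overlapped Snord49b, Snord49a and Snord65. In total, 22 of 1552 snoRNA genes lay in 9 noncoding-only peaks and 21 were covered whole, and 18 of the 22 came from 5 peaks that also lay over a long noncoding gene. They are therefore not independent. A noncoding-only peak was found for 0.95% of all small RNA genes and 2.52% of all noncoding genes. A peak of any kind overlapped 118 of the 1552 snoRNA genes, most of them only in peaks that also lay over a protein-coding gene.

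Among 1577 genes annotated as miRNA, 18 lay in 16 noncoding-only peaks and 17 were covered whole. From a fixed list of miRNA genes, 3 of 40 in the annotation had such a peak, namely Mir9-2, Mir124a-3 and Mirlet7i, and 37 had no peak of any kind. The 40 are gene records, and Mir219-1 is counted under each of its records. The list is not confined to brain miRNAs, as it also holds the Mir17, Mir302 and Mir290 clusters, which had no peak. Mir9-1 and Mir9-3 are not annotated under these names and were found by sequence. The peak over Mir124a-3 was 4.25 kb and 60.7% G and C. Mir124a-1, with the same product family, had no peak. Mirlet7i, a member of the let-7 family that promotes differentiation, lay in a peak of 1.42 kb. Mir34a, a target of p53, lay in a peak of 6.50 kb, Mir29a in one of 0.761 kb, Mir760 in one of 3.02 kb and Mir150 in one of 2.67 kb. Mir3083 lay in a peak of 8.45 kb and Mir3089 in one of 9.45 kb. Beside these, 9 of 1423 genes for spliceosomal and related small nuclear RNAs had a noncoding-only peak. It was also found for 2 copies named 7SK, of a type with 487 genes, and for none of the 332 genes annotated as ribosomal RNA. Among all noncoding genes the share was 2.52%. Small nuclear RNA genes have many near-identical copies in the genome, and how reads were shared among copies is not known here.

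Among antisense genes, 8 of the 45 with a noncoding-only peak held more than 1, and none more than 3. Usp35 and Gm2301, which RefSeq lists as Tbx3os1, held 3 each, covering 6.45 and 2.45 kb. The gene 1700095B22Rik (Kcnd3os) held 2 that covered 50.8% of its 11.4 kb. Among processed transcripts, C230030N03Rik and 2610005L07Rik held 5 each and Zfp783 held 2. Of the peaks of 2610005L07Rik, 4 are the same as those of AC152164.1 and Gm17279, which overlap it on chromosome 8. Among pseudogenes, Gm15710 held 4 peaks over 0.998% of an annotated span of 869 kb, Gm8091 held 4 and Vmn2r-ps11 held 2 that together covered 0.390 kb. None of the 4 peaks in Gm15710 touched an exon of it. Among other long noncoding genes, Gm20393 was overlapped by 37 bp of a peak of 0.645 kb, and Neat1 and 1110038B12Rik are described above.

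Some noncoding genes of this annotation are listed as protein-coding in the later RefSeq table. Of 375 genes with a noncoding-only peak, 258 matched a RefSeq gene, and 34 of these were protein-coding there, with 53 peaks. They include Ttc28, which held 9 peaks over 12.2 kb, C230030N03Rik (Arhgef4) with 5 peaks over 10.8 kb, Usp35, Kctd12, Cebpd and H1f0. Without them 389 peaks remained. By bases covered, Ttc28 and C230030N03Rik ranked just behind Pvt1, AI854517 and C130071C03Rik.

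**Figure D4:**
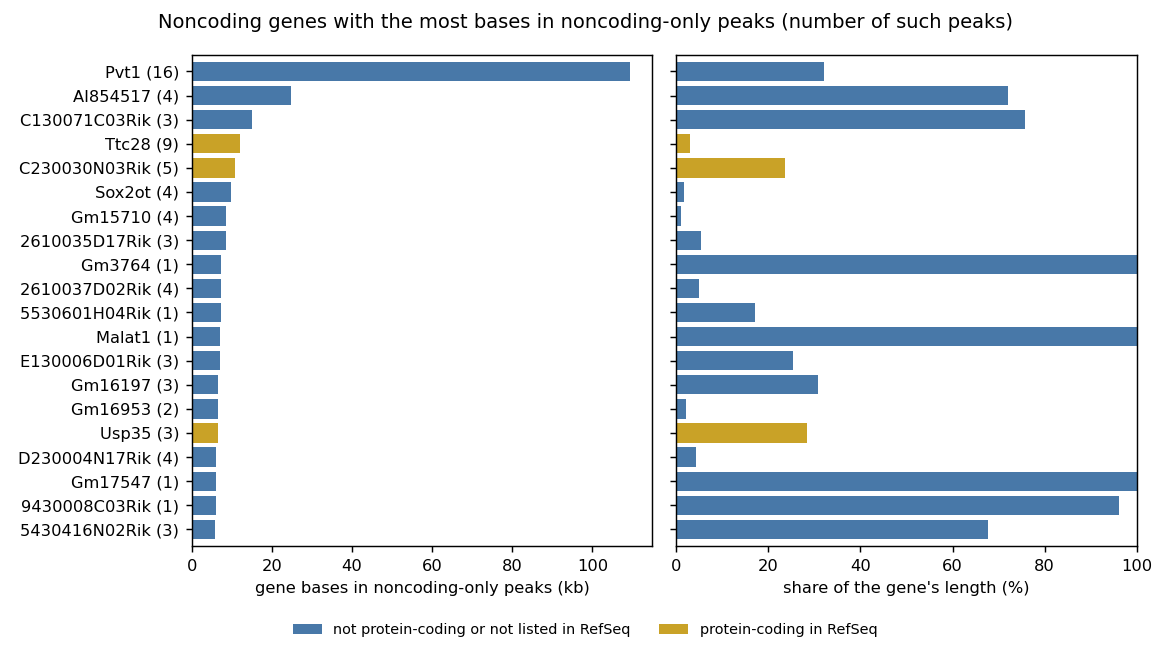
The 20 noncoding genes with the most bases in noncoding-only peaks, with the number of such peaks in brackets. Left, bases of the gene in peaks (kb). Right, the same as a share of the gene's length (%). Pvt1 stands apart with 109.5 kb, and Gm3764 and Malat1 are covered whole. Genes in yellow are protein-coding in RefSeq.

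Many noncoding genes start beside a coding gene, so the distance from each noncoding-only peak to the nearest protein-coding start was measured. The median was 22.3 kb, compared to 34.8 kb for peaks over no gene. A coding start lay within 2 kb of 35 noncoding-only peaks (7.92%, Wilson interval 5.75% to 10.8%) and of 6.03% of peaks over no gene. When the peak midpoint instead of any base decided the overlap, which lets in peaks that reach a coding gene, the share of noncoding-only peaks was 21.7%. Within 5 kb the shares were 18.6% and 12.5%. More than 100 kb from any coding start lay 73 noncoding-only peaks (16.5%) and 25.6% of peaks over no gene. Most noncoding-only peaks thus lay more than 2 kb from a coding start. The rule itself leaves out every peak that covers a coding start, so these shares are lowered by the choice of peaks.

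In a head-to-head arrangement, a noncoding and a coding gene start within 2 kb of each other and run apart. It was present for 58 of the 278 long noncoding genes with a noncoding-only peak. The share among all annotated long noncoding genes was not computed, so this count cannot be read as particular to genes with a peak. The starts in these pairs were 2 to 1735 bp apart, with a median of 167 bp. A noncoding-only peak covered the noncoding start in 7 of the 58, and a peak of any kind covered the coding start in 14. These counts are not like measures, since the rule leaves out peaks that reach the coding gene. With starts this close, the rule itself limits how many noncoding starts can be covered. The widest noncoding-only peaks of these genes were those of 2900052L18Rik beside Bahcc1 (11.9 kb), 5530601H04Rik beside 2610029G23Rik (7.24 kb) and 4732491K20Rik beside Map3k4 (6.66 kb). Next came 5930412G12Rik beside the Wnt receptor gene Fzd10 (5.79 kb) and AI480526 beside the histone methyltransferase gene Setd1b (4.64 kb). The 11.9 kb peak covered the start of 2900052L18Rik, but only 1784 bp of the peak lay in that gene. In AI480526 the start was covered by another noncoding-only peak, of 0.385 kb. In the other 3 genes no noncoding-only peak covered the noncoding start.

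Neural transcription factor genes were looked up as neighbours. The nearest coding start belonged to a gene of this list for 14 noncoding-only peaks (3.17%), for 1.34% of peaks over no gene and for 0.620% of coding gene peaks, while the list is 0.595% of coding genes. The 14 peaks came from 5 neighbourhoods and are not independent, since 4 lay in Sox2ot beside Sox2, 4 in 2610035D17Rik and BC006965 beside Sox9, a gene of neural stem cells and glia, 3 in G630016G05Rik beside Meis2, 2 in Emx2os beside Emx2 and 1 in A830082K12Rik beside Nr2f1. Distances ran from 5.29 kb at Sox2 to 395 kb at Sox9.

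By chromosome, noncoding-only peaks were most numerous on 4, with 51 (3.54% of its peaks), 5 with 45 and 11 with 43, and fewest among the autosomes on 10, with 7 (0.636% of its peaks). Chromosome 15 had 31, of which 16 were those of Pvt1. Chromosome X had 5 and Y had none. Of the 442 peaks, 228 (51.6%) had another peak of the list within 10 kb.

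Few peaks sat at the limits of the rule. The smallest overlap with a noncoding gene was 9 bp, 3 peaks overlapped by under 50 bp, 367 (83.0%) had at least 50% of their bases in a noncoding gene and 332 lay wholly inside. Just outside the rule, 11 peaks without a gene lay within 100 bp of a noncoding gene, and 5 noncoding-only peaks lay within 100 bp of a coding gene. As DNA was cut with 5 restriction enzymes, peak edges can follow fragment ends. Of the 884 edges of noncoding-only peaks, 29.0% lay within 100 bp of a site of these enzymes, compared to 28.7% of all edges.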

How the data were processed

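DRIP-seq of NSPCs was used. Reads were trimmed with Trim Galore 0.6.6, as the submitters' processing notes state, and after alignment to NCBI37/mm9 and removal of duplicates the authors found peaks by Hidden Markov Model. The authors deposited 1 list with no measured level, whose unit is other, namely the positions at which each peak begins and ends. How replicates were combined is not given in the sources used here. The input library was not analysed here.

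Peaks were compared with GENCODE M1 genes and the mm9 sequence with Python 3.11.15, numpy 2.4.6 and pandas 2.3.3, and drawn with matplotlib 3.10.9. Overlap was counted from 1 bp. The annotation has no gene type named antisense, so this class was read from transcript types, and genes typed as processed transcripts with a lincRNA transcript were counted as lincRNA. A gene start is the 5′ end of its gene record. RefSeq gave names, types and mature miRNAs only. Intervals are Wilson intervals at 95%, take peaks as independent and cover counting error only. The overlap step was tested on 1200 simulated peaks with known answers, of which 1200 were assigned as placed.

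Named genes were the fixed list genes with a noncoding-only peak, the 3 leading genes of a class, the 3 widest peaks, the 5 genes with most bases covered, miRNA and snoRNA genes in peaks (up to 20, others counted) and the 5 head-to-head pairs with the widest peak. Other genes, among them list genes without a peak and genes recoded in RefSeq, were chosen after their values were seen. The peaks, lists and rules were chosen with earlier results of these data known. Alternatives were the midpoint or an exon as the overlap, a margin of 2 kb around coding genes, peaks of at least 1 kb, merging within 1 kb, autosomes alone and other summaries. Leaving out Pvt1, leaving out genes recoded in RefSeq and long genes alone were chosen after seeing the data.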

Additional observations from a re-analysis of the deposited data

How the results depend on the processing

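No paired analysis was possible because 1 list without replicates was analysed. Of 76 recomputed values, 52 stayed within 1.5 times the count or within the 95% interval of the share or median, and 24 moved. With an overlap at the peak midpoint, small RNA peaks fell to 4, as most such genes are shorter than the peaks over them, the median G and C content was 48.3% and the share within 2 kb of a coding start 21.7%. That share is 0% by construction with coding genes widened by 2 kb, and 18.6% within 5 kb. Peaks of at least 1 kb left 232 noncoding-only peaks, 147 of lincRNA, 25 of antisense, 19 of processed transcript and 31 of pseudogene genes, with a median of 2.23 kb and 32.3% over a noncoding start. Requiring an exon left 174 peaks, 89 of lincRNA, 17 of antisense and 9 of processed transcript genes, with a median of 1.98 kb, 49.6% G and C, 52.9% over a start and 11.5% within 2 kb of a coding start. Without genes that RefSeq lists as protein-coding, processed transcript peaks fell to 23. The mean size was 1.97 kb, all bases together were 48.9% G and C, and long noncoding genes alone gave 12.9% over a start. Merging within 1 kb and autosomes alone moved no value beyond these limits. Without Pvt1, only the number of peaks and their median size were recomputed, and neither moved. LincRNA genes held the most peaks in each of the settings in which classes were counted. The depth behind the peaks is unknown.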
